A study of Rattus norvegicus with 40 samples.

Results

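ENSRNOT00000032467.4 is a transcript of 1923 bases and was followed as 1 of the 31715 transcripts listed for every sample. It was chosen by the genotype contrast of these same samples, because it was lower in SHR-Tti2+/- rats than in wild-type SHR rats in all tissues measured. Its fall is therefore given here as a description, with no test, and is not independent evidence that the knockout lowered its target. The files pair no transcript with a gene name, and a RefSeq gene table of assembly GRCr8 matched 0 of the 31715 IDs. The transcript was put forward as that of Tti2, the targeted gene, from values the study gives for this gene and not from an annotation. Tti2 is therefore the likely and not the established identity, and no sequence is shown.

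The data come from sequenced poly(A) RNA of 40 samples. Liver, soleus muscle, hippocampus and perirenal fat (peritoneal fat in the sample labels) were taken, with 5 SHR-Tti2+/- and 5 wild-type samples of each tissue. By the rat numbers in the sample titles, they came from 6 rats of each genotype, 12 in all, and the same rat gave 2 to 4 of the tissues. All rats carried the SHR/OlaIpcv background, the spontaneously hypertensive rat, and received no treatment according to the labels. The Tti2+/- rats were heterozygous for a small frameshifting deletion in the first exon of Tti2. This deletion was made with a zinc finger nuclease and bred as a single line, and the controls were wild-type littermates. The age of the rats used for sequencing is not given in the labels. The tissue names could not be checked against marker genes, because the transcripts carry no gene names.

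Telo2, Tti1 and Tti2 make up the TTT complex, which works with the Hsp90 chaperone. Its clients are very large proteins of the PIKK family, which are unstable without it. They include mTOR, which couples growth to nutrients, ATM, ATR and DNA-PKcs, which respond to DNA damage, SMG1, which acts in nonsense-mediated mRNA decay, and TRRAP, a scaffold of histone acetyltransferase complexes. The transcripts of Telo2, Tti1, these kinases and the neighbours of Tti2 could not be looked up by name and were not analysed here.

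The transcript was measured in all 40 samples, with estimated counts between 169 and 600. Libraries held between 19176393 and 32713126 estimated counts in total. A count of this kind can be a fraction, since reads that match several transcripts are divided between them. In 19 of 40 samples the count of ENSRNOT00000032467.4 was whole within 0.001. TPM, the deposited level corrected for effective length and scaled to a constant total, placed it above 62.4% to 84.8% of all listed transcripts in every sample. This rank is over all 31715 listed transcripts, of which 18120 to 20712 per tissue had enough counts to be tested between genotypes. The rank among tested transcripts was not computed.

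In the liver, the organ that sets blood glucose between meals, the 5 wild-type rats (1, 2, 4, 5 and 6) had 6.99, 6.84, 8.89, 8.24 and 6.26 TPM. The 5 SHR-Tti2+/- rats (1, 2, 4, 5 and 6) had 4.27, 3.92, 4.44, 3.95 and 4.63 TPM. The highest SHR-Tti2+/- rat lay below the lowest wild-type rat, and wild-type rats 4 and 5 stood above the others of their group. In a piece of tissue, less RNA per cell and fewer cells that make it cannot be told apart. The mean was 7.44 ± 1.08 TPM (SD, n = 5) in wild-type and 4.24 ± 0.309 TPM (SD, n = 5) in SHR-Tti2+/- liver.

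In the soleus, a muscle of mainly slow fibres, the wild-type rats (2 to 6) had 10.1, 9.80, 10.6, 9.27 and 10.02 TPM. The SHR-Tti2+/- rats (2 to 6) had 4.98, 5.10, 5.28, 5.40 and 5.01 TPM. The groups were widely separated, and the SHR-Tti2+/- values were the most even of all groups on this scale, at 5.16 ± 0.180 TPM (SD, n = 5). Wild-type muscle had 9.97 ± 0.492 TPM (SD, n = 5).

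In the perirenal fat, a lipid store, the wild-type rats (1 to 5) had 11.1, 10.3, 10.4, 8.73 and 11.04 TPM. The SHR-Tti2+/- rats (1 to 5) had 6.04, 6.33, 7.43, 7.48 and 5.94 TPM. These groups came closest to each other, with SHR-Tti2+/- rats 3 and 4 highest in their group and wild-type rat 4 lowest in its group. The means were 10.3 ± 0.948 TPM (SD, n = 5) and 6.64 ± 0.755 TPM (SD, n = 5).

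In the hippocampus, which holds the neurogenic niche studied in these rats, the wild-type rats (1, 2, 3, 5 and 6) had 12.2, 13.3, 12.3, 13.0 and 13.2 TPM. The SHR-Tti2+/- rats (1 to 5) had 7.19, 8.22, 6.73, 7.56 and 6.99 TPM. The means were 12.8 ± 0.506 TPM (SD, n = 5) and 7.34 ± 0.579 TPM (SD, n = 5), with a wide gap between the groups. Wild-type rat 2 lay farthest from the other hippocampus samples on the first 2 principal components of all tested transcripts and had the highest total count. Its level of this transcript was the highest of its group. The study left out a single hippocampus sample as an outlier on principal components, without naming it. All hippocampus samples were kept here unless stated, so these values and those of the study rest on different samples.

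**Figure D1:**
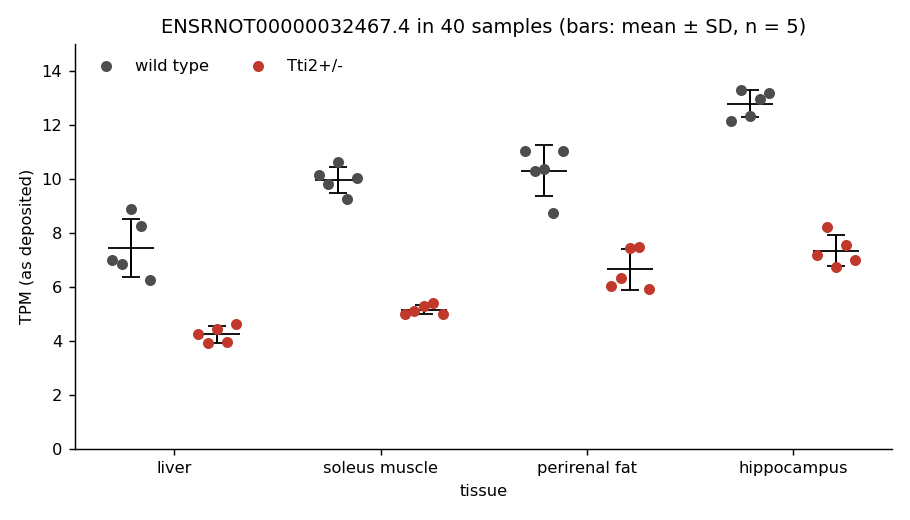
Level of ENSRNOT00000032467.4 in TPM (vertical axis) in each of the 40 samples, by tissue and genotype; points are rats, and black bars give the mean ± SD of 5 rats. In every tissue the SHR-Tti2+/- points lie below all wild-type points, with the narrowest gap in the perirenal fat.

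On counts normalized with edgeR's TMM method within each tissue, every SHR-Tti2+/- rat again lay below every wild-type rat in all 4 tissues. Such a separation was found for 1.28% of the tested liver transcripts, 0.502% of those of muscle, 0.598% of those of fat and 0.594% of those of hippocampus. It was found in all 4 tissues for 0.00637% of the 15693 transcripts tested in each, which is this transcript alone. Since the transcript was chosen on this contrast, these shares describe the choice.

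A transcript was called where its change was 1.5-fold or more with an adjusted p-value below 0.1 in edgeR's quasi-likelihood fit. Transcripts called lower made up 0.103% of those tested in liver, 0.00552% in muscle, 0% in fat and 0.00483% in hippocampus. In fat, DESeq2 called 5 of the 20221 tested transcripts lower. Of the same 20221, 636 were lower at an unadjusted p-value below 0.05 in edgeR, a count that includes transcripts passing without any difference. Whether ENSRNOT00000032467.4 passed is not given as a result, because this contrast chose it.

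The remaining level was nearest to 50% in the soleus muscle and highest in the perirenal fat. The log2 fold change of SHR-Tti2+/- against wild-type rats was -0.90 (standard error 0.072) in the muscle, which leaves 53.4% of the wild-type level. It was -0.81 (standard error 0.074) in the hippocampus, which leaves 57.2%, and -0.77 (standard error 0.11) in the liver, which leaves 58.5%. In the fat it was -0.66 (standard error 0.088), which leaves 63.4%.

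Set against the wild-type TPM mean of its tissue, each SHR-Tti2+/- sample kept between 49.99% and 72.6%, with a median of 56.8% over the 20 samples. Single wild-type samples ranged from 84.2% to 119% of their own mean, so no SHR-Tti2+/- sample entered the wild-type range. The share was 51.7 ± 1.80% (SD, n = 5) in the muscle, 57.0 ± 4.15% in the liver, 57.4 ± 4.52% in the hippocampus and 64.5 ± 7.33% in the fat (SD, n = 5 each).

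The difference in log2 fold change between muscle and fat was -0.25 (standard error 0.11). The other 5 pairs of tissues differed by between -0.12 and 0.15, with standard errors from 0.10 to 0.14, computed as if the tissues were independent. These differences rest on the contrast that chose the transcript and were not tested.

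Within single animals the fat share was the highest in 4 of the 5 SHR-Tti2+/- rats with fat, and the muscle share was the lowest in 4 of the 5 with muscle. The exceptions were rat 2, highest in the hippocampus, and rat 5, lowest in the liver. SHR-Tti2+/- rat 3 kept 72.2% in the fat, 52.6% in the hippocampus and 51.2% in the muscle. SHR-Tti2+/- rat 4 kept 72.6% in the fat, 59.7% in the liver, 59.1% in the hippocampus and 53.0% in the muscle. On TMM-normalized CPM, rat 4 lay above the mean of its group in all 4 tissues, by 0.18 in fat, 0.14 in liver, 0.10 in muscle and 0.02 in hippocampus on the log2 scale. Rat 3 was above it in fat, by 0.15, and had -0.02 in muscle and -0.10 in hippocampus.

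SHR-Tti2+/- rat 2 had the highest share in the hippocampus, 64.3%, and the lowest in the muscle, 49.99%. Rat 5 was the most even of the rats with 4 tissues, from 53.0% in the liver to 57.6% in the fat. Averaged over their tissues, the 6 SHR-Tti2+/- rats lay between 54.9% and 61.1%. The averages rest on 2 to 4 tissues per rat and were not compared by a test.

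**Figure D2:**
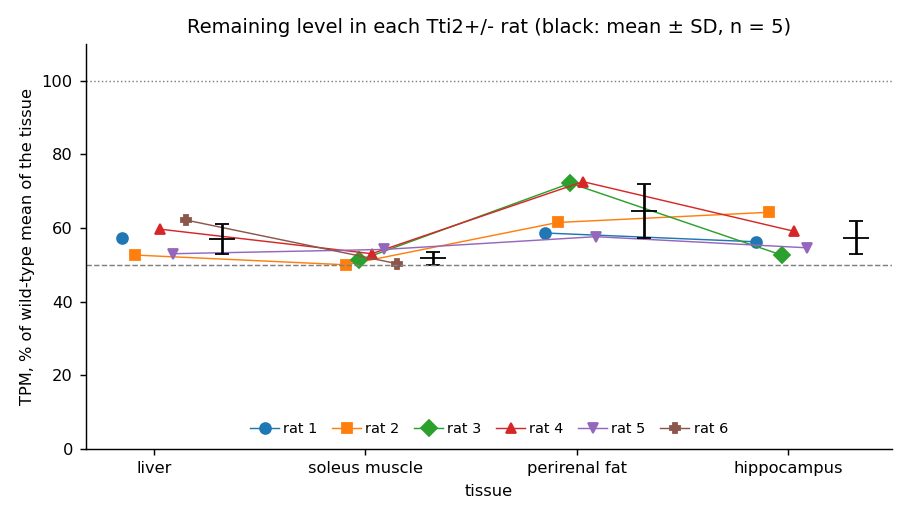
TPM of ENSRNOT00000032467.4 in each SHR-Tti2+/- sample as a percentage of the wild-type mean of the same tissue (vertical axis), by tissue; colours and shapes mark the 6 rats, lines join neighbouring tissues of a rat, and black bars give the mean ± SD of 5 rats. The samples lie from the dashed line at 50% up to 72.6%, with the tightest group in the muscle and rats 3 and 4 highest in the fat.

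The spread between rats was close to what counting reads alone gives in several groups. In SHR-Tti2+/- muscle the SD of TPM was 3.48% of the mean, where counting error alone gives 6.62%. In SHR-Tti2+/- liver the values were 7.29% and 7.27%, and in SHR-Tti2+/- hippocampus 7.89% and 7.13%. Wild-type hippocampus and muscle had 3.95% and 4.94% against counting errors of 5.15% and 4.79%.

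Wild-type liver stood apart with 14.5% against 5.41%, and fat was above counting error in both genotypes, with 9.21% against 5.02% in wild-type and 11.4% against 6.50% in SHR-Tti2+/- rats. An SD of 5 values is itself imprecise, and these spreads were not compared by a test. In wild-type muscle the scale mattered, since the SD was 4.42% of the mean for CPM, counts scaled to a constant total, taken over the whole library and 8.06% after TMM normalization. edgeR's moderated coefficient of biological variation was between 9.38% and 13.3% for this transcript in the 4 tissues, while the trend at its abundance was between 17.5% and 22.9%.

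**Figure D3:**
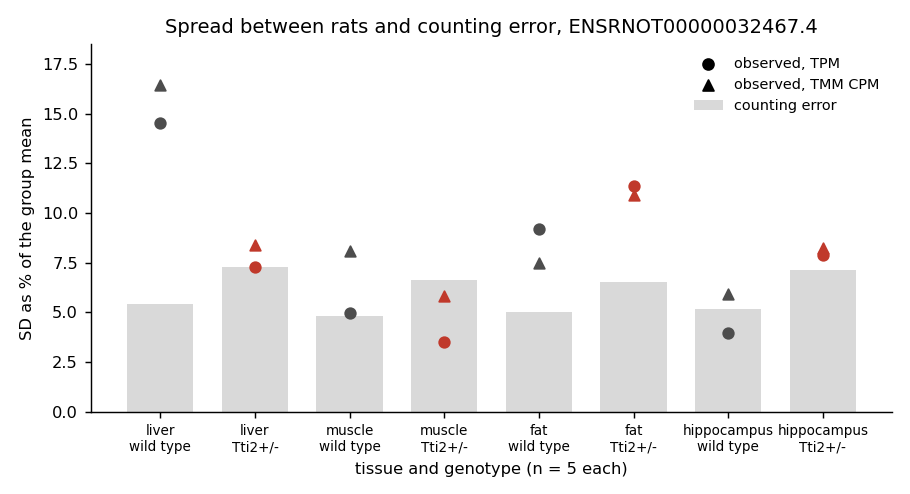
SD between 5 rats as a percentage of the group mean (vertical axis) for ENSRNOT00000032467.4 in each tissue and genotype; circles are TPM, triangles TMM-normalized CPM, and grey bars the counting error expected from the counts. Wild-type liver and both fat groups lie above their bars on both scales, while SHR-Tti2+/- muscle lies below its bar on both.

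The level of the transcript between tissues of one genotype was not part of the choice and was tested. Its order depended on how the libraries were scaled. On TPM, wild-type rats had the highest level in the hippocampus (12.8 ± 0.506), then fat (10.3 ± 0.948), muscle (9.97 ± 0.492) and liver (7.44 ± 1.08; SD, n = 5 rats each). Muscle and fat did not differ beyond their spread (exact permutation test, two-sided, p = 0.51, adjusted over 6 pairs 0.51). This test exchanges samples freely and ignores that most rats gave both tissues. The edgeR test of tissues used below likewise takes the samples of a rat as independent. The other 5 pairs differed, with adjusted p-values of 0.012 to 0.019 by the same exact permutation test, for which 0.0079 is the smallest unadjusted p that 5 against 5 allow.

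With TMM factors set across the 4 tissues of wild-type rats, muscle was highest at 27.9 ± 2.27 CPM, followed by liver at 17.9 ± 2.90, and hippocampus had 11.02 ± 0.711 and fat 10.97 ± 0.816 (SD, n = 5 each). The factors themselves lay between 0.598 and 0.660 in muscle, 0.7103 and 0.751 in liver, 1.39 and 1.45 in fat, and 1.51 and 1.56 in hippocampus. CPM of the library total, without these factors, gave 17.4 ± 0.763 in muscle, 16.9 ± 0.930 in hippocampus, 15.6 ± 1.31 in fat and 13.1 ± 2.00 in liver (SD, n = 5 each). Muscle, hippocampus and fat thus lay close to each other on that scale, and liver was the lowest there as on TPM.

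Of the 6 pairs of tissues, only muscle against liver had the same direction on all 3 scales in both genotypes, with muscle higher. In wild-type rats the log2 difference was 0.64 (standard error 0.096, adjusted p = 6.3e-06 by edgeR's quasi-likelihood test over all transcripts). It was 0.42 on TPM (adjusted exact permutation p = 0.012) and 0.40 on CPM of the library total (adjusted exact permutation p = 0.024). In SHR-Tti2+/- rats it was 0.51 (standard error 0.089, adjusted p = 3.6e-05, edgeR), 0.28 on TPM and 0.29 on CPM of the library total, with adjusted exact permutation p-values of 0.0095 and 0.016. The muscle level was higher than the liver level by less than 1.5-fold on TPM and CPM of the library total in both genotypes, and on TMM in SHR-Tti2+/- rats. In SHR-Tti2+/- rats the log2 difference from edgeR ranged from 0.31 to 0.55 over other filters, size factors and samples left out.

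With TMM, the wild-type hippocampus was below muscle by -1.34 (standard error 0.097) and below liver by -0.70 (standard error 0.096) on the log2 scale, and fat was below muscle and liver by a like amount, with adjusted p-values from edgeR of 2.45e-06 or less. On TPM the hippocampus was above both muscle, by 0.36, and liver, by 0.78, and fat was above liver by 0.47. Hippocampus and fat did not differ under TMM (log2 difference 0.01, standard error 0.096, adjusted p = 0.96, edgeR), while on TPM the hippocampus was higher by 0.31 (adjusted exact permutation p = 0.012). No order of the 4 tissues is therefore given.

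Between tissues most transcripts differ, so a call is common. In wild-type rats 67.3% of transcripts were called between hippocampus and muscle, 63.6% between hippocampus and fat, 69.8% between hippocampus and liver, 60.2% between muscle and fat, 63.7% between muscle and liver and 55.4% between fat and liver. ENSRNOT00000032467.4 was called in 5 of these 6 pairs. In SHR-Tti2+/- rats it was called in 4 of the 6, without hippocampus against fat and muscle against liver. There the shares were 68.3%, 63.1%, 70.2%, 60.9%, 63.7% and 55.5% in the same order of pairs. These counts are near what the shares of all transcripts give.

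The effective length, with which the authors' software turns counts into TPM, also differed by tissue for this transcript. It was between 1866 and 1909 bases in the hippocampus and fat samples and between 2011 and 2086 bases in the liver and muscle samples. The transcript itself has 1923 bases, so its effective length was below its length in hippocampus and fat and above it in liver and muscle. The 2 pairs of tissues did not overlap, and the part of this length in the TPM differences was not tested.

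**Figure D4:**
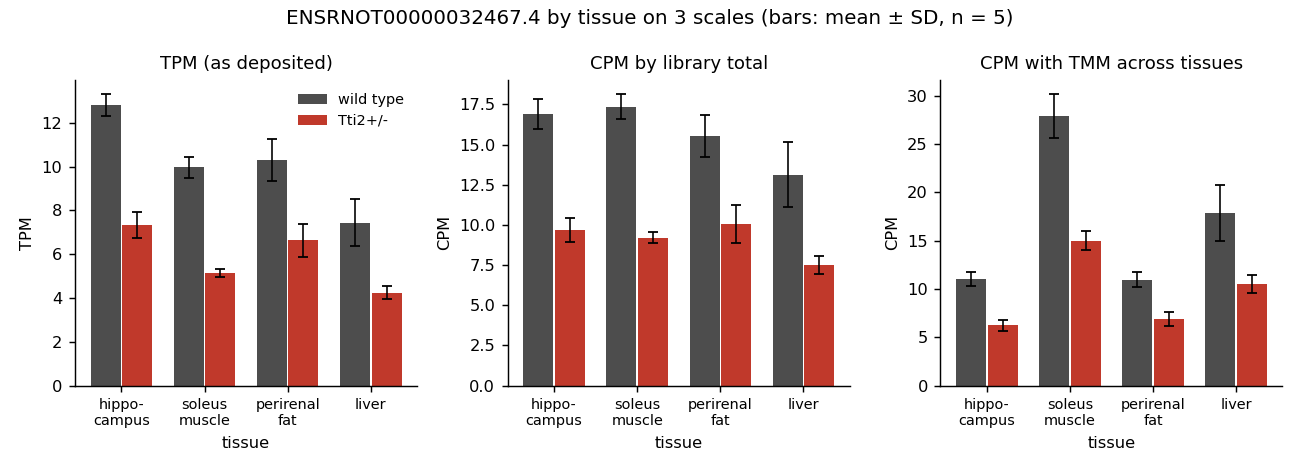
Mean level of ENSRNOT00000032467.4 by tissue on TPM, on CPM of the library total and on CPM with TMM factors set across the tissues of a genotype (vertical axes), for wild-type and SHR-Tti2+/- rats; error bars are SD over 5 rats. The SHR-Tti2+/- bar is lower in every tissue on each scale, while the order of tissues changes, with muscle at 27.9 CPM in wild-type rats under TMM and hippocampus highest on TPM.

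No agreement between tissues of the same rat was detectable in the level of the transcript. For each pair of tissues, log2 CPM was centred within tissue and genotype and compared over the 8 or 9 rats with both tissues. Tissues were matched to a rat by the number in the sample titles alone. Over 49 such pairs of samples, deviations across transcripts had a median r of 0.00, so the data do not themselves show the match. Pearson's r was 0.09 between liver and muscle, 0.12 between liver and fat, and -0.17 between liver and hippocampus. It was -0.31 between muscle and fat, -0.12 between muscle and hippocampus and -0.23 between fat and hippocampus. No pair passed an exact permutation test of the rats within genotype (two-sided, unadjusted p from 0.44 to 0.83, adjusted over the 6 pairs 0.83 in each).

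Spearman's rho for the same pairs ranged from -0.26 to 0.24 (exact permutation p from 0.53 to 0.88, adjusted 0.88). Without the 2 rats farthest from the median in the tissue named first, r ranged from -0.68 between fat and hippocampus to 0.58 between liver and fat. With 8 or 9 rats only a strong relation could have been seen. Counting error, which is separate in each library, also limits r. On TMM-normalized CPM the variance between rats was 0.775 to 1.34 times counting variance in SHR-Tti2+/- muscle and liver and both hippocampus groups. It was 2.22 to 9.24 times counting variance in the other groups. A level shared by the tissues of a rat could thus be hidden, and its absence cannot be read from this test. The mean r over the 6 pairs was -0.10 for this transcript, and the median of that mean over all 15693 transcripts tested in the 4 tissues was 0.02, with 90% of transcripts between -0.21 and 0.32.

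**Figure D5:**
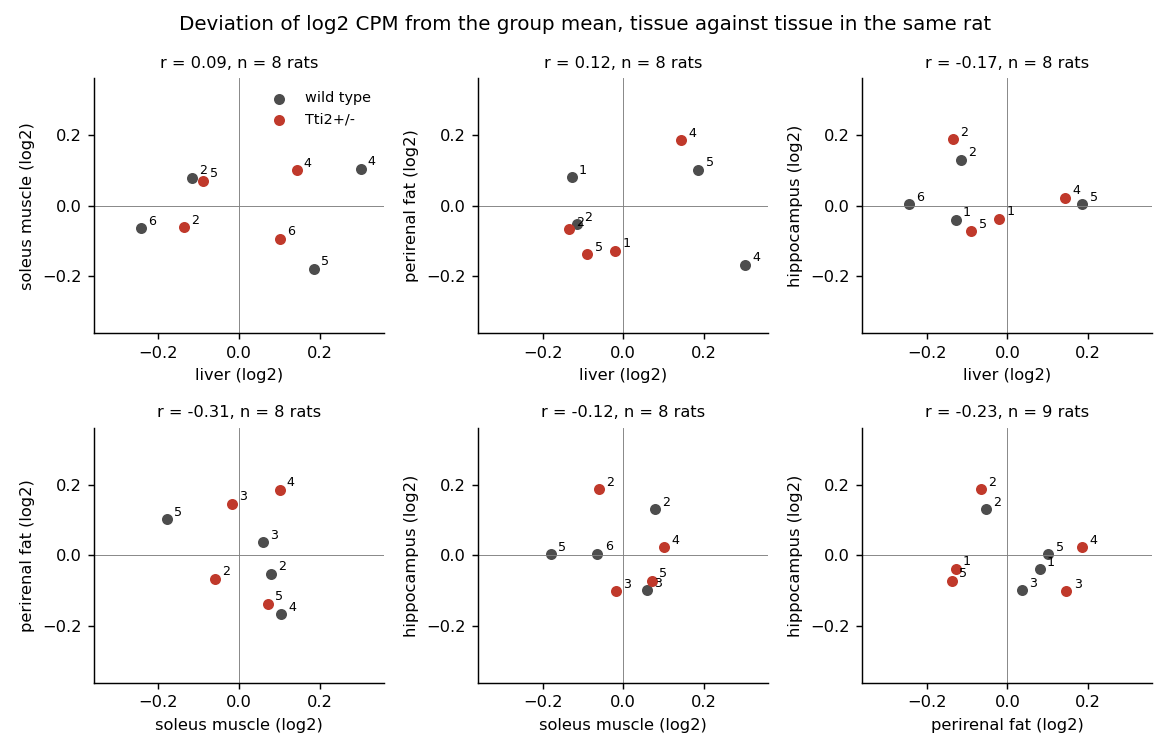
Deviation of log2 CPM of ENSRNOT00000032467.4 from the mean of its tissue and genotype, with one tissue on each axis, for rats that gave both tissues; numbers are rat numbers within a genotype. The points show no common slope, and r lies between -0.31 and 0.12.

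No transcript followed ENSRNOT00000032467.4 within genotype at the threshold used. In each tissue the slope of every other tested transcript on its log2 CPM, centred within genotype, was tested in 10 samples with the quasi-likelihood method of edgeR. The share with an adjusted p-value below 0.1 was 0% in liver, muscle, fat and hippocampus alike. The level set on the other side of the slope carries the same counting error, so transcripts that follow it could have been missed. Unadjusted p-values were below 0.05 for 931 of 18422 liver transcripts (5.05%), 2530 of 18119 muscle transcripts (13.96%), 723 of 20220 fat transcripts (3.58%) and 1182 of 20711 hippocampus transcripts (5.71%).

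These counts moved with the scale and with single samples. With TPM of ENSRNOT00000032467.4 in place of TMM-normalized CPM, 1263 muscle transcripts (6.97%) had an unadjusted p-value under 0.05 by the same edgeR test. Without wild-type rat 5 it was 1207 (6.79%). Without SHR-Tti2+/- rat 6, 156 transcripts were called, 13 with a positive and the others with a negative slope. In the hippocampus the count of 1182 became 476 with TPM, 550 without wild-type rat 2 and 3656 (17.8%) without SHR-Tti2+/- rat 2. In fat the count of 723 became 1493 without SHR-Tti2+/- rat 5. In liver it stayed between 715 and 1014 over the samples left out in turn.

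Of 15692 other transcripts tested in all 4 tissues, 13.1% had a correlation with it of the same sign in each tissue, 1124 positive and 925 negative. The mean correlation over the tissues lay between -0.63 and 0.66 with a median of 0.00. The 2 highest and the 2 lowest of those with a common sign are named here as a description, since they were picked from the extremes of many transcripts. Their points share library, depth and normalization with ENSRNOT00000032467.4.

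ENSRNOT00000020388.5, 2445 bases long, had r = 0.44 in liver, 0.95 in muscle, 0.66 in fat and 0.58 in hippocampus (n = 10 samples each). Without the 2 samples farthest from the median these values were 0.22, 0.94, 0.60 and 0.29. In muscle, where it followed most closely on TMM-normalized CPM, its level on TPM varied little, from 9.59 to 10.5 over the 10 samples. The 2 scales differ, since TPM does not carry the TMM factor, and the part of that factor in r was not tested.

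ENSRNOT00000005612.6, 1429 bases long, had r = 0.73, 0.64, 0.56 and 0.70 in liver, muscle, fat and hippocampus, and 0.44, 0.33, 0.38 and 0.76 without the 2 farthest samples. It was very abundant in muscle, at 4091 to 6128 TPM, and low in the liver, at 1.52 to 2.49 TPM.

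On the negative side, ENSRNOT00000000707.6, 4180 bases long, had r = -0.73, -0.91, -0.16 and -0.70 in the same order, and -0.52, -0.90, -0.14 and -0.33 without the 2 farthest samples. ENSRNOT00000079891.1, 4425 bases long, had r = -0.75, -0.67, -0.41 and -0.69, and -0.54, -0.49, -0.26 and -0.10 without them. Most of these correlations were thus smaller once the 2 farthest samples were left out.

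The deviation of ENSRNOT00000032467.4 within genotype was also set against the total count of the library, on TMM-normalized CPM and on TPM, 8 relations in all. In the hippocampus TMM-normalized CPM was higher in deeper libraries, with r = 0.60 (exact permutation p = 0.015, adjusted over 8 relations 0.12) and rho = 0.72 (exact permutation p = 0.023, adjusted 0.18) over 10 samples. Without the 2 farthest libraries r was 0.23. On TPM r was 0.32 and rho 0.58 (exact permutation p = 0.19 and 0.085). Neither scale passed after adjustment, and in the other tissues adjusted exact permutation p-values were 0.58 or more. There too r moved when the 2 farthest libraries were left out, on TMM-normalized CPM from 0.16 to -0.63 in liver, from -0.27 to 0.81 in muscle and from -0.13 to 0.32 in fat, so that no relation with depth can be read from these samples.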

How the data were processed

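RNA was isolated from the frozen tissues, enriched for poly(A) RNA, made into strand-specific libraries and sequenced single-end. The authors estimated transcript levels with kallisto (0.46.0 in the submitters' processing notes, which also list the build rn6), using Ensembl cDNA sequences and sequence-based bias correction. Whether strand was used in the counting is not given in the sources used here. The deposited tables hold an estimated count, an effective length and a TPM per transcript. TPM as deposited is scaled for effective length and library.

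Estimated counts were rounded to whole numbers. In R 4.3.3 with edgeR 4.0.16, all tested transcripts were fitted by the quasi-likelihood test with TMM normalization and Benjamini-Hochberg adjustment. Genotype was fitted within each tissue on transcripts with at least 5 counts in at least 47% of samples. Tissues were fitted within each genotype on transcripts with at least 5 counts in at least 5 samples. Slopes were fitted within each tissue with genotype as a term. Calls needed an adjusted p-value under 0.1 and, except for slopes, a fold change of at least 1.5. Log2 CPM used a prior count of 1. Standard errors were taken from the F statistic. Single values were tested by exact permutation. The scripts were tested on simulated data.

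Groups and rat numbers were taken from the sample titles. Tissues with the same number and genotype were taken to be of the same rat, on the titles alone. Over 49 such pairs of samples, deviations across transcripts correlated with a median r of 0.00, from -0.04 to 0.16. These values do not by themselves show that the pairs share a rat. Rats of the 2 genotypes with the same number are different animals. No 2 samples of a group held like counts (chi-square per degree of freedom of 6.39 or more), so each was 1 replicate.

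The 4 transcripts named for their correlation were those with the 2 highest and the 2 lowest mean correlations over the tissues, among transcripts with the same sign in all 4. The transcript and these rules were chosen with earlier results of these data known. Alternatives were DESeq2 1.42.0, median-of-ratios size factors within edgeR, other filters, TPM, the rat as a block, and each sample left out in turn. CPM of the library total between tissues was added after the TMM factors had been seen. Intervals for single counts and counting errors cover counting error only. Gene lists needed gene names and were not run.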

Additional observations from a re-analysis of the deposited data

Results flagged for a closer look

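Each group of 5 samples was searched for 1 sample standing apart in the TPM, TMM-normalized CPM and effective length of ENSRNOT00000032467.4 and in the total count. In 2 of the 32 groups the gap over the range was above 0.71, the 95% limit of Dixon's test for 5 values. About 1.6 would be so by chance. Both were effective lengths. In SHR-Tti2+/- fat, rat 2 had 1909 bases, while the other 4 rats had 1875 to 1881 (gap over range 0.827). In SHR-Tti2+/- hippocampus, rat 1 had 1885 bases, while the other 4 had 1868 to 1872 (gap over range 0.733). No level of the transcript and no total count passed this limit. The total count of wild-type hippocampus rat 2 came closest, with a gap over range of 0.706. It was 32713126, while the other 4 had 19176393 to 23159304.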

How the results depend on the processing

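The genotype difference kept its direction in all 4 tissues and moved by less than the spread between rats under every alternative run. This contrast chose the transcript and its groups did not overlap, so the direction was fixed in advance. The alternatives describe only how far the value moved. Leaving out single samples, its log2 value ranged from -0.83 to -0.69 for liver, -0.95 to -0.88 for muscle, -0.70 to -0.62 for fat and -0.86 to -0.77 for hippocampus. Without wild-type hippocampus rat 2, the sample farthest on the principal components, it was -0.77 there.

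The rat number as a replicate block gave -0.76, -0.90, -0.66 and -0.81 in liver, muscle, fat and hippocampus. Over all transcripts, 11, 0, 0 and 0 were called under it in place of 38, 1, 0 and 1. The 2 genotypes share only the number: over 19 pairs of samples the deviations correlated at -0.12 to 0.08. For tissue differences, where the block is the same rat, it changed no call and no direction. For muscle minus liver the block gave 0.64 (adjusted p = 0.000101, edgeR) in wild-type rats. It gave 0.49 (adjusted p = 0.000304, edgeR) in SHR-Tti2+/- rats.

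Tissue differences, as log2 values, changed most with the scale, and the cause was not tested. In wild-type rats TPM reversed hippocampus minus muscle (0.36), hippocampus minus liver (0.78), muscle minus fat (-0.047) and fat minus liver (0.47), and gave 0.42 for muscle minus liver, short of 1.5-fold. CPM of the library total gave -0.041, 0.36, 0.16, 0.24 and 0.40 for the same 5 pairs, reversing hippocampus minus liver and fat minus liver and losing the call of the others. In SHR-Tti2+/- rats TPM reversed hippocampus minus muscle (0.51), hippocampus minus fat (0.14), hippocampus minus liver (0.79), muscle minus fat (-0.37) and fat minus liver (0.65). CPM of the library total reversed hippocampus minus muscle (0.071), hippocampus minus liver (0.37), muscle minus fat (-0.13) and fat minus liver (0.42).

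Calls between tissues were lost in wild-type rats for muscle minus liver with median-of-ratios size factors (0.53), DESeq2 (0.53) and at least 10 counts in every sample (0.56), and for hippocampus minus liver with the last filter (-0.55). In SHR-Tti2+/- rats they were lost for fat minus liver without a filter (-0.57) and with at least 10 counts in every sample (-0.56), and for hippocampus minus liver with the latter (-0.54), which also turned hippocampus minus fat to 0.023. With each sample left out, wild-type hippocampus minus fat ranged from -0.041 to 0.035, muscle minus liver from 0.58 to 0.71, losing its call without liver rat 6, and SHR-Tti2+/- fat minus liver from -0.66 to -0.55, losing it without fat rat 1 or 5, liver rat 4 or 6 or hippocampus rat 3. SHR-Tti2+/- muscle minus liver, not called, was 0.40 with median-of-ratios size factors or DESeq2 and 0.31 with at least 10 counts in every sample. With each sample left out it ranged from 0.36 to 0.55, lowest without hippocampus rat 3.

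Agreement between tissues of the same rat on TPM had the opposite sign for liver and muscle (-0.013) and liver and fat (-0.13), and was -0.55 for muscle and fat. With each rat left out, r ranged from -0.22 to 0.45 for liver and muscle, -0.11 to 0.64 for liver and fat, -0.26 to 0.0085 for liver and hippocampus, -0.63 to -0.13 for muscle and fat, -0.42 to -0.05 for fat and hippocampus and -0.34 to 0.065 for muscle and hippocampus. The count of transcripts that follow the transcript stayed 0 with other size factors, without a filter and on TPM. With each sample left out it ranged from 0 to 1 in the liver and fat and from 0 to 156 in the muscle, the highest without SHR-Tti2+/- muscle rat 6.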
